A study of Mus musculus with 8 samples.

Results

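The BCL2 family decides whether a cell opens its mitochondrial outer membrane and dies by apoptosis, and the mRNA of 10 of its genes was followed in the kidneys of 8 diabetic mice. The 10 genes, chosen by name as well-known members of the family and not by a limit on their values, are Bcl2, Bcl2l1, Mcl1, Bax, Bak1, Bcl2l11, Bid, Bad, Bbc3 and Pmaip1, out of 55401 genes in the table. All 10 were found and all 10 passed the filter on low values. Male mice received either rFGF4, a recombinant human FGF4 altered so that it is no longer mitogenic, or its vehicle PBS, by intraperitoneal injection every other day. Kidney was sequenced as 1 poly(A) RNA library per mouse (the labels name kidney, and the study's RNA extraction for PCR names the cortex), from mice 1, 2, 3 and 5 of the rFGF4 group and mice 2, 3, 4 and 5 of the vehicle group. The vehicle samples are labelled as a db/db model, that is, mice without a working leptin receptor (kept on the C57BLKS/J background in the study's methods), and the rFGF4 samples carry no genotype label of their own. The series' design text gives db/db for the experiment, while the study's text describes the sequenced mice as made diabetic with streptozotocin, and the files do not settle which. No non-diabetic group was analysed here, so every value below belongs to a diabetic mouse.

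The family has 3 kinds of member, and the balance between their proteins at the mitochondrion sets the outcome. The anti-apoptotic proteins BCL2, BCL-XL (from Bcl2l1) and MCL1 hold the others in check. The effectors BAX and BAK (from Bak1) form the pore through which cytochrome c leaves the mitochondrion to switch on caspases. The BH3-only proteins BIM (from Bcl2l11), BID, BAD, PUMA (from Bbc3) and NOXA (from Pmaip1) carry signals such as growth factor loss, DNA damage or death receptor cleavage to the other 2 kinds. In the kidney, tubular epithelial cells are the cells best known to die by this route after toxic, ischaemic or metabolic injury. Much of the family is controlled at the protein level, by cleavage (BID), phosphorylation (BAD), degradation (MCL1) or relocation (BAX), and none of this is seen in mRNA.

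The libraries differed in more than treatment, and this bears on every value below. Summed FPKM (mapped fragments of a gene for each kilobase of its exons, scaled to the library's total) ran from 389407 to 552604, and mitochondrially encoded genes took from 18.96% (rFGF4 mouse 1) to 38.35% (vehicle mouse 2) of it. FPKM carry no read counts, and depth relative to vehicle mouse 2, read from the steps between low values, lay between 0.908 and 1.13. Only small differences in depth were searched for, so this reading could not have shown a large one. Mice 1 of the rFGF4 group and 5 of the vehicle group stood apart within their groups, with the lowest mitochondrial shares (18.96% and 24.42%), the highest summed FPKM of 8 tubular injury markers (1500 and 656) and the highest sums of 14 leukocyte markers (3580 and 24700, mostly Igkc). The kidney label held in all 8 libraries, with 7 proximal tubule markers summing to between 370 and 1510 FPKM in the rFGF4 group and between 950 and 1690 in the vehicle group. Since the samples are bulk tissue, fewer cells of a type and less RNA per cell cannot be told apart.

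The start regions of 4 members are shown because these genes are textbook targets of factors that act in stressed cells, p53 for Bax, FOXO proteins for Bcl2l11 (Bim) and both for Bbc3 (Puma), and because Mcl1 was the most abundant member. Each runs 5′ to 3′ on the gene's strand from 250 bases before to 50 bases after a RefSeq transcript start in GRCm38.p6. They are chr3:95658471-95658770 on the + strand for Mcl1, chr7:45466849-45467148 on the - strand for Bax, chr2:128125788-128126087 on the + strand for the first start site of Bcl2l11, and chr7:16310011-16310310 on the + strand for the second start site of Bbc3. Bcl2l11 and Bbc3 have further start sites, and the site shown for each is the one that holds the FOXO motif. Capitals mark a match to a searched motif, and all else is in lower case.
Mcl1: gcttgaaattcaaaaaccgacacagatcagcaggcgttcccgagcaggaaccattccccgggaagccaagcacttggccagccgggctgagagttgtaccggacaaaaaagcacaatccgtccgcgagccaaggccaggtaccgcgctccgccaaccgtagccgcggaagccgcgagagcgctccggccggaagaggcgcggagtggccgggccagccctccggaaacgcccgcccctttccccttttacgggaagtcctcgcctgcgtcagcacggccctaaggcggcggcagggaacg
Bax: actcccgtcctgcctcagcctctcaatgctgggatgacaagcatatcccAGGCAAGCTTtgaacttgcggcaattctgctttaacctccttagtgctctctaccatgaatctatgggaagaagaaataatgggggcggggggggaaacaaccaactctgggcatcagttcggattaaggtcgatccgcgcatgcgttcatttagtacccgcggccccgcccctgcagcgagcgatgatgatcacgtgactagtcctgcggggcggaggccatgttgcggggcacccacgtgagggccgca
Bcl2l11: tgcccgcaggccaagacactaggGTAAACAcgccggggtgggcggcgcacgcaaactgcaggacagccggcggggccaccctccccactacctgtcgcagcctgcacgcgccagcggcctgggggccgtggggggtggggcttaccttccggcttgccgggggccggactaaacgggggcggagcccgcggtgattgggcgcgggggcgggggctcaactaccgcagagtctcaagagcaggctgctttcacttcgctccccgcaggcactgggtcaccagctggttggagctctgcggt
Bbc3: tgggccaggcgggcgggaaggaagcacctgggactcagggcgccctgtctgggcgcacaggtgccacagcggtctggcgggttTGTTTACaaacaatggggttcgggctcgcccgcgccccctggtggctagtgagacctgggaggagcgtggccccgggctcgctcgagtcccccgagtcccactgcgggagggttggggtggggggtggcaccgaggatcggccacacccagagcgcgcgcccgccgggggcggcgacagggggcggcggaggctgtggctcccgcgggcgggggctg

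The capitals in Bax are a p53 half-site match that begins at -201 from the transcript start. Those in Bcl2l11 and Bbc3 are the FOXO motif GTAAACA, read as written at -227 in Bcl2l11 and on the other strand at -167 in Bbc3. The motifs were searched on both strands and were this FOXO motif, the AP-1 motif TGANTCA, the CRE TGACGTCA, the STAT motif TTCNNNGAA, the NF-kB site and the p53 half-site. Of 32851 promoters of the same length, 3.65% held the FOXO motif, 7.81% AP-1, 1.79% the CRE, 8.3% the STAT motif, 8.46% the NF-kB site and 8.36% the p53 half-site. The search covered 15 RefSeq start sites of 9 of the 10 members, and Pmaip1 was not searched. Besides those shown, the matches in them were NF-kB sites only. They lay at -242 in the second start region of Bcl2l1 and at -137 and -136, overlapping, in the first of Bbc3. The printed Mcl1 region held no match. A match describes the letters of a window and nothing more.

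Whether rFGF4 changed the mRNA of the family was asked by comparing the groups over the whole table, in the 15150 genes that reached 0.5 FPKM in at least 4 libraries. No member differed between the groups beyond the spread between mice. Of the 10 members, 0 had an unadjusted p under 0.05 in limma's moderated test (4.62% of all genes tested), 0 passed the study's threshold, which adds to that p a fold change no smaller than 1.5 upward or 0.67 downward (1.53%), and 0 had groups that did not overlap (3.33%). After Benjamini-Hochberg adjustment with limma, 0 members and 0% of all genes passed 0.05, against 700 genes at an unadjusted p under 0.05, and the smallest adjusted p of any gene was 0.918. Mean log2(FPKM + 1) was higher in the rFGF4 group for 8 members and lower for Bax and Bad, beside 67.1% of all genes higher, with a median log2 fold change of 0.15 for the members and 0.09 for all genes. That split moved with the scaling, to 7 of 10 members and 47.4% of all genes higher once a common median ratio was set for all libraries, and to 10 of 10 and 77.9% when mitochondrial genes were removed. It also rested on rFGF4 mouse 1, without which 4 of 9 members tested and 53% of all genes were higher. With the mitochondrial share as a covariate, added after seeing the data, 1 of 10 members and 43.5% of all genes were higher, and with the mouse number as a block 3 of 10 and 46.7%. That block leaves rFGF4 mouse 1 and vehicle mouse 4 out of the group difference, since no mouse of the other group shares their number. An exact permutation test of 4 mice against 4 can reach no p below 0.0286 (two-sided, 70 splits), and the members' exact p ran from 0.257 (Mcl1) to 1 (Bad). These p-values measure the spread between individual mice.

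**Figure D1:**
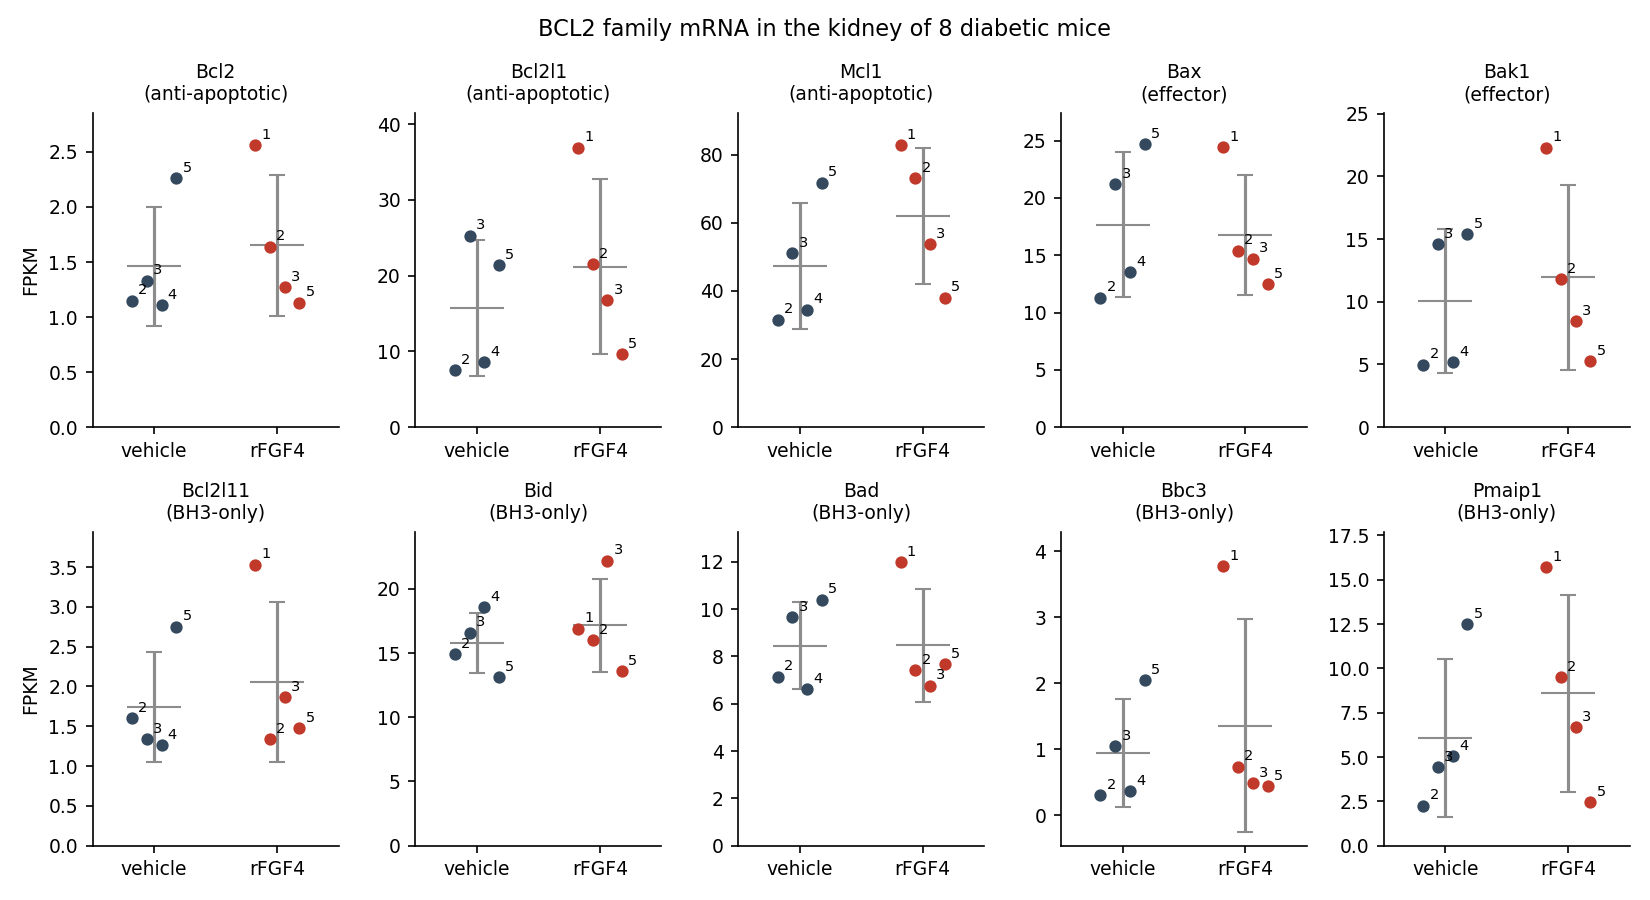
FPKM of each member (vertical axis, 1 scale per panel) in the 4 vehicle mice (dark points) and the 4 rFGF4 mice (red points), with the mouse number beside each point and the group mean ± SD in grey. The groups overlap in every panel, and rFGF4 mouse 1 is the highest of all 8 mice in 8 of the 10 panels.

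Among the anti-apoptotic genes, Mcl1, which encodes a short-lived protein that holds BAK and BIM, was the most abundant member. Mcl1 stood at 82.7, 73.2, 53.7 and 38.0 FPKM in rFGF4 mice 1, 2, 3 and 5 and at 31.6, 51.2, 34.5 and 71.8 FPKM in vehicle mice 2, 3, 4 and 5. The 2 lowest values were those of vehicle mice 2 and 4, but vehicle mouse 5 lay beside rFGF4 mouse 2, and the groups overlapped. Mean levels were 61.9 ± 20.0 FPKM with rFGF4 and 47.3 ± 18.5 FPKM with vehicle (SD, n = 4 each). On the log2(FPKM + 1) scale Mcl1 was 0.40 (SE 0.32, 95% confidence interval -0.34 to 1.13) higher with rFGF4, with an adjusted p of 0.92 by limma. Bcl2l1, whose main product BCL-XL protects most epithelial cells, was at 36.9, 21.5, 16.8 and 9.64 FPKM in rFGF4 mice 1, 2, 3 and 5 and at 7.57, 25.3, 8.6 and 21.4 FPKM in vehicle mice 2, 3, 4 and 5. Each group held both low and high mice, and the highest value was 4.88 times the lowest. The log2 fold change of Bcl2l1 was 0.43 (SE 0.49, interval -0.68 to 1.55), an interval that holds both a fall and a rise of over 1.5 times. Bcl2, the founding member, best known in lymphocytes, was low at 2.56, 1.64, 1.27 and 1.13 FPKM with rFGF4 and at 1.15, 1.33, 1.11 and 2.26 FPKM with vehicle. Only rFGF4 mouse 1 and vehicle mouse 5 rose above 2 FPKM, and these were the mice with the most leukocyte marker RNA. The log2 fold change of Bcl2 was 0.10 (SE 0.21, interval -0.38 to 0.58).

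The effectors gave small differences in opposite directions. Bax, which moves from the cytosol to the mitochondrion when a cell is committed to die, was at 24.4, 15.4, 14.7 and 12.5 FPKM in rFGF4 mice 1, 2, 3 and 5 and at 11.3, 21.2, 13.5 and 24.7 FPKM in vehicle mice 2, 3, 4 and 5. The highest value belonged to a vehicle mouse and the next to an rFGF4 mouse, and the lowest was again a vehicle mouse. Means were 16.8 ± 5.28 FPKM with rFGF4 and 17.7 ± 6.29 FPKM with vehicle, a log2 fold change of -0.05 (SE 0.28, interval -0.70 to 0.60) and an adjusted p of 0.98 by limma. Its sign was not stable, turning to 0.04 when mitochondrial genes were removed. Bak1, the effector that sits on the mitochondrion at all times, was at 22.3, 11.8, 8.47 and 5.24 FPKM with rFGF4 and at 4.98, 14.6, 5.16 and 15.4 FPKM with vehicle. Bak1 spread more than Bax, with a highest value 4.48 times the lowest against 2.17 times for Bax. Its log2 fold change was 0.23 (SE 0.49, interval -0.90 to 1.35), and it turned to -0.11 without rFGF4 mouse 1.

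On the deposited FPKM, the 5 BH3-only genes ranged from the steadiest to the most variable of the family. Bid, whose protein is cut by caspase-8 to link death receptors to mitochondria, was at 16.9, 16.0, 22.2 and 13.6 FPKM in rFGF4 mice 1, 2, 3 and 5 and at 14.9, 16.6, 18.6 and 13.1 FPKM in vehicle mice 2, 3, 4 and 5. It was the only member whose highest mouse was rFGF4 mouse 3, and its highest value was 1.7 times its lowest (1.97 times at a common median ratio, where Bad at 1.45 was steadier). The log2 fold change of Bid was 0.11 (SE 0.17, interval -0.28 to 0.50), the narrowest interval among the members. Bad, which binds BCL-XL until survival signals phosphorylate it, was at 12.0, 7.42, 6.77 and 7.68 FPKM with rFGF4 and at 7.15, 9.65, 6.63 and 10.4 FPKM with vehicle. Group means were equal at 8.46 FPKM, with a log2 fold change of -0.01 (SE 0.21, interval -0.48 to 0.46). Bcl2l11, whose product BIM rises on loss of growth factors, was at 3.53, 1.34, 1.87 and 1.48 FPKM with rFGF4 and at 1.6, 1.34, 1.26 and 2.75 FPKM with vehicle. As for Bcl2, only rFGF4 mouse 1 and vehicle mouse 5 exceeded 2 FPKM, and the log2 fold change of 0.14 (SE 0.25, interval -0.44 to 0.71) turned to -0.07 without rFGF4 mouse 1.

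Bbc3 and Pmaip1, both known targets of p53, varied most. Bbc3 was at 3.78, 0.733, 0.479 and 0.439 FPKM in rFGF4 mice 1, 2, 3 and 5 and at 0.299, 1.05, 0.36 and 2.05 FPKM in vehicle mice 2, 3, 4 and 5. Most of its rFGF4 mean of 1.36 ± 1.62 FPKM came from mouse 1, and the highest value was 12.6 times the lowest. The log2 fold change of 0.17 (SE 0.44, interval -0.83 to 1.17) rests on values near the filter, and the + 1 in log2(FPKM + 1) makes changes of so low a gene look smaller. Pmaip1 was at 15.7, 9.51, 6.69 and 2.47 FPKM with rFGF4 and at 2.26, 4.42, 5.03 and 12.5 FPKM with vehicle. Each group ran almost from the bottom to the top of the range, and the log2 fold change was 0.43 (SE 0.55, interval -0.83 to 1.68).

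**Figure D2:**
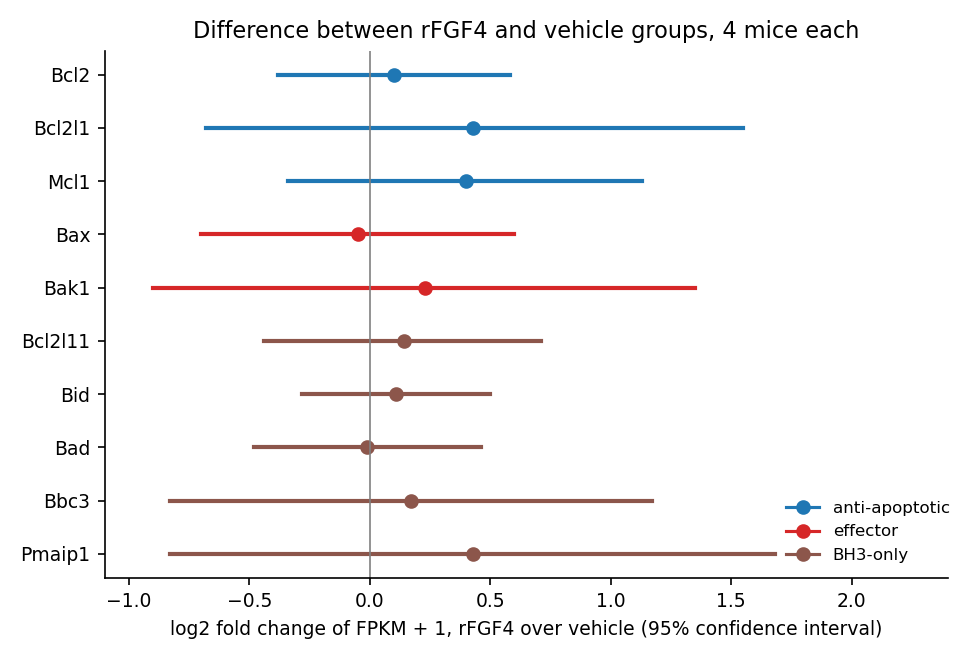
Log2 fold change of FPKM + 1, rFGF4 over vehicle (horizontal axis), for each member, with bars giving the 95% confidence interval from limma and colours giving the role. All 10 intervals cross 0, from the narrowest for Bid (-0.28 to 0.50) to the widest for Pmaip1 (-0.83 to 1.68).

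Levels can be set against each other because FPKM are per length. Mean FPKM over the 8 mice fell from 54.6 for Mcl1 through 18.5 for Bcl2l1, 17.2 for Bax, 16.5 for Bid, 11.0 for Bak1, 8.46 for Bad and 7.31 for Pmaip1 to 1.9 for Bcl2l11, 1.56 for Bcl2 and 1.15 for Bbc3. Mcl1 ranked first in each of the 8 libraries. Pmaip1 exceeded Bcl2l11 in 8 of 8 libraries, Bcl2l11 exceeded Bcl2 in 7 and Bcl2 exceeded Bbc3 in 7. The members from Bcl2l1 to Pmaip1 changed places from mouse to mouse, Bcl2l1 exceeding Bax in 4 of 8 libraries and Bax exceeding Bid in 3. The ranges of all neighbours in the order overlapped when taken over the 8 mice.

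A ratio of members within a library does not depend on how the library was scaled. The balance on which the family's action turns lies between proteins, and a ratio of mRNA in bulk tissue does not measure it. The ratios below were chosen after the member values were seen and are given without a test. Bax over Mcl1 was 0.296, 0.211, 0.273 and 0.329 in rFGF4 mice 1, 2, 3 and 5 and 0.359, 0.414, 0.391 and 0.344 in vehicle mice 2, 3, 4 and 5. It was lower in every rFGF4 mouse than in any vehicle mouse, with means of 0.277 ± 0.0498 and 0.377 ± 0.0314 (SD, n = 4 each) and a gap of only 0.344 to 0.329 between the nearest mice. Among the 15149 other genes tested, 0.977% had a ratio to Mcl1 that was lower in every rFGF4 mouse. Of the 6 effector to anti-apoptotic ratios, this was the only 1 without overlap, while 5 had a lower mean with rFGF4. For ratios to Bcl2 and Bcl2l1 the share of all genes that was lower in every rFGF4 mouse was 0.356% and 0.205%. Of the 15 ratios of a BH3-only gene to an anti-apoptotic gene, 0 were without overlap and 10 had a lower mean with rFGF4. A lower mean ratio with rFGF4 was common, found for 85.9% of all genes over Mcl1, 91.1% over Bcl2l1 and 58.5% over Bcl2.

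The sum of Bax and Bak1 over the sum of Bcl2, Bcl2l1 and Mcl1 was 0.383, 0.283, 0.322 and 0.364 with rFGF4 and 0.405, 0.459, 0.422 and 0.42 with vehicle, again without overlap. The means were 0.338 ± 0.0446 and 0.427 ± 0.023. Of the 15147 other genes tested, 0.753% singly had a ratio to the anti-apoptotic sum that was lower in every rFGF4 mouse, a share for single genes that is no measure of how often a sum of 2 genes does so. Mcl1 makes up most of the denominator, and without it the ratio was 1.18, 1.18, 1.28 and 1.65 with rFGF4 and 1.87, 1.34, 1.92 and 1.69 with vehicle, where the groups overlapped. The often used Bax over Bcl2 ratio was 9.55, 9.42, 11.5 and 11.0 with rFGF4 and 9.89, 15.9, 12.1 and 10.9 with vehicle. It overlapped widely, and its vehicle mean of 12.2 ± 2.63 rested on mouse 3. Bak1 over Bcl2l1 was the steadiest of the ratios computed for named pairs, at 0.604, 0.55, 0.503 and 0.544 with rFGF4 and 0.658, 0.576, 0.6 and 0.721 with vehicle.

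**Figure D3:**
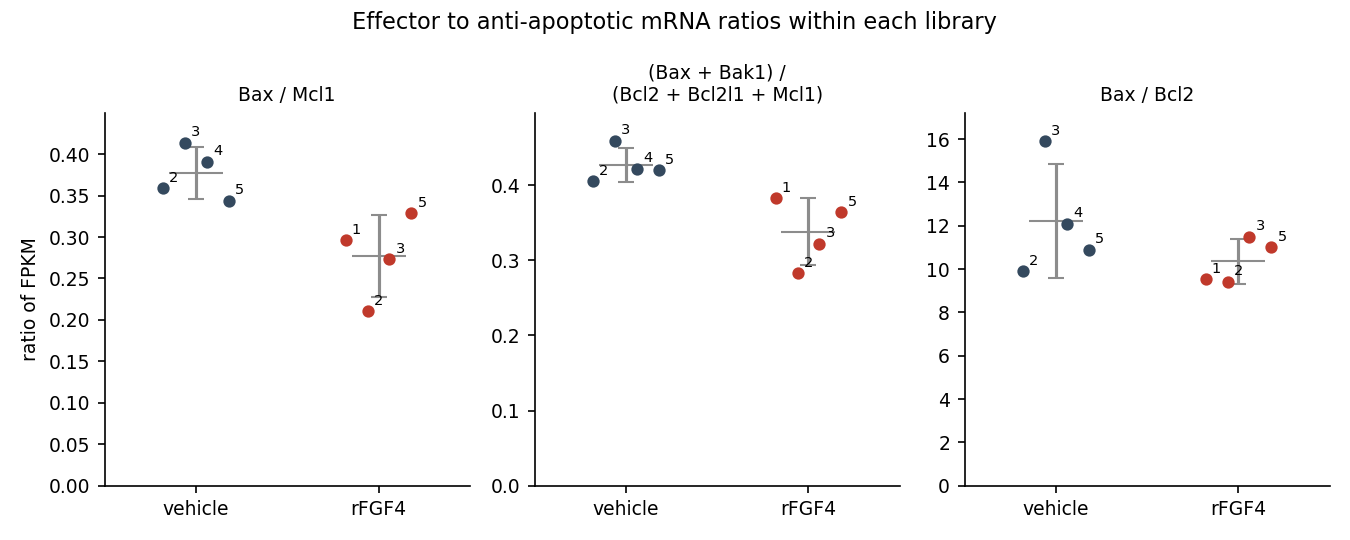
Ratios of FPKM within each library (vertical axes, from 0) in vehicle mice (dark) and rFGF4 mice (red), numbered, with group means ± SD in grey. Bax over Mcl1 and the effector sum over the anti-apoptotic sum are lower in all 4 rFGF4 mice, and Bax over Bcl2 overlaps.

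Although the groups did not separate, most members rose and fell together from mouse to mouse. rFGF4 mouse 1 had the highest level of its group for 9 members and of all 8 mice for 8, the exceptions being Bax, highest in vehicle mouse 5, and Bid. Within the vehicle group mouse 5 was highest for 8 members, and within the rFGF4 group mouse 5 was lowest for 8. The share of all genes with the same extremes was not counted, but the typical gene leaned the same way. The median ratio of all genes tested to their own geometric means was highest in rFGF4 mouse 1 (1.3). In the vehicle group it was highest in mouse 5 (1.11), and in the rFGF4 group it was lowest in mouse 5 (0.942). The summed FPKM of the 10 members was 221, 159, 133 and 92.2 in rFGF4 mice 1, 2, 3 and 5 and 82.8, 147, 94.7 and 176 in vehicle mice 2, 3, 4 and 5. Apart from rFGF4 mouse 5 and vehicle mouse 4, which changed places, the mice stood in the same order for the injury markers (kidney genes such as Havcr1, Lcn2 and Krt20 that tubular cells switch on when damaged), whose mean log2(FPKM + 1) was 6.88, 5.4, 4.35 and 2.93 in rFGF4 mice 1, 2, 3 and 5 and 2.52, 4.45, 2.76 and 5.43 in vehicle mice 2, 3, 4 and 5.

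Relations of the 10 members to 4 library measures (mitochondrial share, injury markers, leukocyte markers and proximal tubule markers) were computed over the 8 mice on the log2(FPKM + 1) scale, 40 in all, with the measures chosen after the values were seen. By Pearson's r the closest was that of Mcl1 with the injury markers, at r = 0.98 (exact permutation p = 9.92e-05, adjusted 0.00264) and Spearman's rho = 0.95 (exact permutation p = 0.00114, adjusted 0.00637). Leaving out the 2 mice farthest from the median, rFGF4 mouse 1 and vehicle mouse 2, r was 0.99, and 0.429% of all genes tested had an r at least as far from 0 in either direction. Bak1 followed the same markers with r = 0.95 (exact permutation p = 0.00062, adjusted 0.00322) and rho = 0.98 (exact permutation p = 0.000397, adjusted 0.00529), and r was 0.91 without those mice. For Bcl2l1, r was 0.95 (exact permutation p = 0.00124, adjusted 0.00451) and rho 0.9 (exact permutation p = 0.00456, adjusted 0.0101), with 0.9 without them. As many as 2.81% and 2.89% of all genes were at least as far from 0 as Bak1 and Bcl2l1. Bid had no such relation, at r = 0.02 (exact permutation p = 0.955, adjusted 0.979) and rho = -0.07 (exact permutation p = 0.882, adjusted 0.928), and 98.6% of all genes were at least as far from 0.

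The mitochondrial share and the proximal tubule markers, lowest in the mouse with the highest injury markers, ran the other way. Mcl1 fell with the mitochondrial share at r = -0.97 (exact permutation p = 0.000149, adjusted 0.00264) and rho = -0.98 (exact permutation p = 0.000397, adjusted 0.00529), with -0.96 without rFGF4 mouse 1 and vehicle mouse 5. Pmaip1 did so at r = -0.94 (exact permutation p = 0.000397, adjusted 0.00314) and rho = -0.93 (exact permutation p = 0.00223, adjusted 0.00637), with -0.87 without them. Bbc3 fell with the proximal tubule markers, at r = -0.95 (exact permutation p = 0.000769, adjusted 0.00342) and rho = -0.95 (exact permutation p = 0.00114, adjusted 0.00637), with -0.89 without rFGF4 mouse 1 and vehicle mouse 3. At least as far from 0 were 1.58%, 4.51% and 2.45% of all genes in turn.

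The relations of Bax and Bad depended on the measure. Against the mitochondrial share Bax had r = -0.75 (exact permutation p = 0.0424, adjusted 0.05, with 38.8% of all genes as far from 0) and rho = -0.88 (exact permutation p = 0.00724, adjusted 0.0145), but r was -0.38 without rFGF4 mouse 1 and vehicle mouse 5, so the linear relation rests on those mice. Bad went from r = -0.67 (exact permutation p = 0.0709, adjusted 0.0788; rho = -0.69, exact permutation p = 0.0694, adjusted 0.0895) to 0.01 without the same mice, and rests on them too, with 48.7% of all genes as far from 0 over the 8 mice. Without these mice r against the mitochondrial share also went from -0.77 to -0.08 for Bcl2l11 and from -0.84 to -0.49 for Bbc3. Over the 8 mice, 36.2% and 23.5% of all genes were as far from 0. Bcl2, Bcl2l1 and Bak1 kept -0.91, -0.73 and -0.67. Against the proximal tubule markers, however, Bad had r = -0.92 (exact permutation p = 0.00117, adjusted 0.00451) and rho = -0.86 (exact permutation p = 0.0107, adjusted 0.0178), with -0.83 without rFGF4 mouse 1 and vehicle mouse 3, and 5.91% of all genes were as far from 0. Bax had r = -0.85 (exact permutation p = 0.00236, adjusted 0.00629) and rho = -0.86 (exact permutation p = 0.0107, adjusted 0.0178) against them, also -0.83 without those mice, with 19.4% of all genes as far from 0.

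Relations to the leukocyte markers had an r of 0.69 to 0.89 for the members other than Bid (-0.45), with exact permutation p adjusted to between 0.0052 and 0.0575. Bcl2 had the highest, at r = 0.89 (exact permutation p = 0.0057, adjusted 0.0134) and rho = 0.86 (exact permutation p = 0.0107, adjusted 0.0178). Its r was 0.87 without rFGF4 mouse 1 and vehicle mouse 5, and 5.94% of all genes were as far from 0. That of Bcl2l11 went from 0.72 to -0.32 without those mice and rests on them.

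No r was calculated within a group, which has 4 mice. In both groups the order of Mcl1, Bax, Bak1 and Bbc3 was the exact inverse of the order of the mitochondrial share. The share of all genes in that order was not counted. The median ratio over all genes tested was 1.3, 1.07, 0.957 and 0.942 in rFGF4 mice 1, 2, 3 and 5, the same inverse order. In vehicle mice 2, 3, 4 and 5 it was 0.908, 0.958, 0.907 and 1.11. A common median ratio for all libraries narrowed the spread of several members, to a highest over lowest value of 8.83 for Bbc3, 4.83 for Pmaip1, 3.41 for Bcl2l1 and 3.13 for Bak1. The measures share their libraries with the members, and the part of cell makeup, injury or dissection in these levels was not tested.

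**Figure D4:**
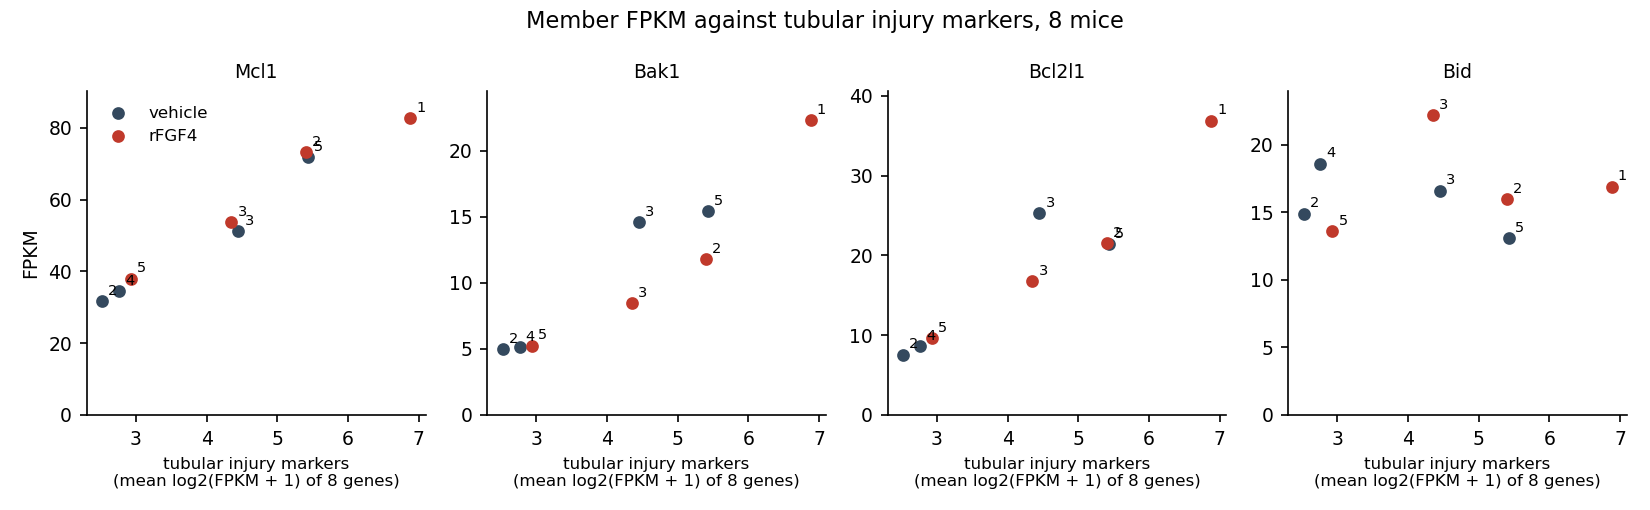
FPKM of Mcl1, Bak1, Bcl2l1 and Bid (vertical axes, from 0) against the mean log2(FPKM + 1) of 8 tubular injury markers (horizontal axis) in vehicle mice (dark) and rFGF4 mice (red), numbered. Mcl1, Bak1 and Bcl2l1 rise with the markers over the 8 mice, Mcl1 most closely by Pearson's r (0.98 on the log2(FPKM + 1) scale), and Bid does not (r = 0.02).

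Of 15 other family genes, 11 were tested, 1 had a higher level at an unadjusted p under 0.05 and 0 a lower one, with a median log2 fold change of 0.17 (8 of 11 higher, and 6 at a common median ratio). The 1 was Bcl2l13, a mitochondrial relative also known as a mitophagy receptor, at 4.66, 5.29, 5.49 and 4.27 FPKM in rFGF4 mice 1, 2, 3 and 5 and 3.87, 3.5, 3.9 and 4.01 FPKM in vehicle mice 2, 3, 4 and 5. Every rFGF4 mouse was above every vehicle mouse, by a log2 fold change of 0.29 (SE 0.12, exact permutation p = 0.0286, limma p = 0.0344 and adjusted p = 0.918). Its exons overlap those of Bid on the other strand, and whether counting used strand is not given in the sources used here. Bcl2l10 was listed at 0.0001, a value that appears to stand in place of 0, in all 8 mice, and Bcl2a1a, Bcl2a1b and Bcl2a1d are near-identical copies whose values are uncertain.

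Genes that act around the family were counted in the same way, with directions on the deposited FPKM. Of 15 genes of the apoptosome, the caspases and their inhibitors, 14 were tested and 0 passed an unadjusted p of 0.05 in limma, with 10 higher and 4 lower (8 of 14 higher at a common median ratio). Of 9 outer membrane partners such as the VDAC channels, 9 were tested and 0 passed, with 6 higher on the deposited FPKM but 2 at a common median ratio. Of 13 genes that act on MCL1, BIM or BAD protein, such as the ubiquitin ligase gene Huwe1 and the 14-3-3 genes, 12 were tested and 0 passed, with 11 higher and 1 lower. Of 17 p53 target genes 15 were tested, 10 were higher (7 at a common median ratio) and 1 passed, Sesn2, a stress-induced brake on mTORC1, at 20.2 ± 3.41 FPKM with rFGF4 and 14.5 ± 3.64 FPKM with vehicle (log2 fold change 0.47, SE 0.19, exact permutation p = 0.0571, limma p = 0.04, adjusted p = 0.918).

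Of 10 transcription factor genes upstream of the BH3-only genes, 7 were tested, all 7 were higher in mean with rFGF4 (6 at a common median ratio, and 67.1% of all genes on the deposited FPKM), and 1 passed. This was Foxo3, whose protein drives Bcl2l11 and Bbc3 when AKT is inactive, at 13.0, 15.5, 18.8 and 12.9 FPKM in rFGF4 mice 1, 2, 3 and 5 and 10.8, 10.4, 9.42 and 12.3 FPKM in vehicle mice 2, 3, 4 and 5. The groups did not overlap, with a log2 fold change of 0.44 (SE 0.15, exact permutation p = 0.0286, limma p = 0.0164, adjusted p = 0.918). Its 2 textbook targets had log2 fold changes of 0.14 (Bcl2l11) and 0.17 (Bbc3) with groups that overlapped. The FOXO motif lay in the start region of each that is shown above, and not in their other start regions.

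Markers of the kidney's cells were counted likewise, and of the counts of higher genes below a common median ratio changed only that of the proximal tubule, from 1 to 0. All 7 podocyte markers were higher in mean with rFGF4, with sums of 83.1 to 127 FPKM against 57.6 to 110, and 1 passed, Synpo, a podocyte actin-binding protein gene (log2 fold change 0.87, SE 0.30, exact permutation p = 0.0571, limma p = 0.0195, adjusted p = 0.918). All 6 endothelial markers were lower, with sums of 24.6 to 36.5 FPKM against 29.8 to 44.8, and 1 passed, Tek, the angiopoietin receptor gene (log2 fold change -0.38, SE 0.16, exact permutation p = 0.0857, limma p = 0.0424, adjusted p = 0.918). Of the 7 proximal tubule markers 6 were lower, of the 7 markers of the thick limb, distal tubule and collecting duct 6 were lower (1110 to 1760 FPKM in sum against 1110 to 1610), and 0 of either list passed. All 8 injury markers were higher (206 to 1500 FPKM in sum with rFGF4, 160 to 656 with vehicle) and 0 passed. Of 14 leukocyte markers 8 were tested, 4 were higher and 4 lower, and 0 passed (142 to 3580 FPKM in sum against 59.1 to 24700). All 5 erythroid markers were lower (120 to 2660 FPKM in sum against 1140 to 4330) and 0 passed. The part of these cell markers in the member levels was not tested.

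The genes lie at chr1:106538178-106714274 (Bcl2), chr2:152780668-152831728 (Bcl2l1), chr3:95658788-95663176 (Mcl1), chr7:45461697-45466898 (Bax), chr17:27019810-27029009 (Bak1), chr2:128126038-128162547 (Bcl2l11), chr6:120891930-120916853 (Bid), chr19:6941861-6951899 (Bad) and chr7:16308393-16318205 (Bbc3) in GENCODE M21 on GRCm38. FPKM are sums over a gene's exons, so no value belongs to 1 isoform, which matters for Bcl2l1, Mcl1 and Bcl2l11, whose splice forms can differ in action. Exons of Bcl2, Bak1, Bid and Bad overlap an antisense gene (D630008O14Rik, Ggnbp1, Bcl2l13 and Gpr137), so their reads cannot be fully told apart without strand. Those of Bax overlap Gm45808 on the same strand, so strand would not tell these reads apart.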

How the data were processed

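Kidney RNA of 8 mice was analysed, 4 per group, grouped by the treatment in the labels. The authors assembled reads with StringTie and deposited 1 table of FPKM per gene, with their own edgeR comparison beside it. Those deposited columns hold a fold change (a ratio), its log2, a p-value and an adjusted q-value, and were not used. The submitters' processing notes list HISAT2 2.0, StringTie 1.3.0, Bowtie 0.12.2 and the build mm8 without roles. With no counts, no counting interval could be calculated. The labels and the study's methods name different sequencers.

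FPKM were transformed as log2(FPKM + 1). Genes reaching 0.5 FPKM in at least 4 libraries were fitted with limma 3.58.1 (R 4.3.3), letting the prior variance follow a trend, and p-values were adjusted over all genes tested by the Benjamini-Hochberg method, after the procedure had been tested on simulated data. Single genes were compared by two-sided exact permutation tests (scipy 1.17.1). The members and lists were chosen with earlier results of these data known. All 10 members are named, and from each other list the genes with an unadjusted p under 0.05, at most 5, while other genes serve as examples of their list. Ddit3 has 2 identifiers, and the one of higher mean was kept. Alternatives were another pseudocount (0.1), no filter or a mean FPKM of at least 1, other scalings, array weights, a block and each library left out. A mitochondrial covariate, the omission of both high-injury libraries and the ratios were added after seeing the data. Gene identifiers match GENCODE M21 (GRCm38). Promoter sequences are RefSeq's for GRCm38.p6. No protein sequence was used here, nor a promoter of Pmaip1.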

Additional observations from a re-analysis of the deposited data

Results flagged for a closer look

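In the rFGF4 group the Bbc3 level of mouse 1 (3.78 FPKM) stood far from the other 3 (0.439 to 0.733 FPKM). The gap to the nearest of them was 0.845 of the group's whole range on the log2(FPKM + 1) scale, above Dixon's 95% critical value for 4 samples. Of 44 groups examined 1 was beyond its critical value, where chance gives about 1 in 20, or 2.2.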

How the results depend on the processing

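With the deposited FPKM, 232 genes passed the study's threshold. Leaving out each library in turn gave 182 to 569, and 2 libraries moved the count by over 1.5 times, rFGF4 mouse 5 (569 without it) and vehicle mouse 5 (421 without it). Array weights gave 496 and a mitochondrial covariate 504. The split of higher against lower genes was 165 to 67, but 93 to 84 at a common median ratio and 280 to 41 without mitochondrial genes, and it turned to 128 to 376 with the covariate. No member's groups ceased to overlap under any alternative, leaving out 1 library included. The count of members with an unadjusted p under 0.05 stayed at 0 except for 1 with array weights (Mcl1, log2 fold change 0.62, also past the study's threshold) and 1 with the covariate (Bax, -0.41, not past it), settings in which 12% and 8.4% of all genes came under that p. Bbc3 fell under the filter without rFGF4 mouse 1 or 2, without vehicle mouse 3 or 5, and without both high-injury libraries. Signs of the log2 fold change turned as follows, and the cause was not tested. With the mouse number as a replicate block they were Bcl2 -0.12, Bcl2l1 -0.08, Bak1 -0.34, Bcl2l11 -0.15 and Bbc3 -0.38, with 263 genes past the threshold and 0 members at p under 0.05. In that fit rFGF4 mouse 1 and vehicle mouse 4, whose numbers no other mouse shares, add nothing to the group difference. Deviations from the group means had correlations of -0.229, -0.155 and -0.393 between same-numbered mice. They show no likeness, but so few cannot settle whether the numbers pair the mice. With the covariate the log2 fold changes were Bcl2 -0.17, Bcl2l1 -0.17, Mcl1 -0.05, Bak1 -0.43, Bcl2l11 -0.13, Bbc3 -0.40 and Pmaip1 -0.36. Without mitochondrial genes Bax was 0.04 and Bad 0.08, with array weights Bax was 0.05, and at a common median ratio Bid was -0.02. Leaving out 1 library gave 0.13 to 0.74 for Bcl2l1, 0.23 to 0.62 for Mcl1, 0.09 to 0.84 for Pmaip1, 0.01 to 0.34 for Bbc3 where it was tested, -0.05 to 0.24 for Bcl2, -0.24 to 0.12 for Bax, -0.11 to 0.52 for Bak1, -0.07 to 0.3 for Bcl2l11, -0.02 to 0.2 for Bid and -0.17 to 0.09 for Bad. The effector to anti-apoptotic ratio was lower with rFGF4 by a difference of -0.0887, and of -0.104 to -0.0704 with 1 library left out. Of the alternative values of the members, 134 kept their direction and stayed on the same side of an unadjusted p of 0.05, 29 turned and 2 came under that p.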
